A study of Ovis aries with 32 samples.

Results

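Middle cerebral arteries of adult sheep were compared with those of newborn lambs, both left untreated. The comparison used 8 of the 32 arrays of the series, the 4 untreated adult arrays and the 4 untreated newborn arrays, chosen by their labels. The study exposed ovine arteries of several ages to phenylephrine (PHE), an agonist of alpha-1 adrenergic receptors, and compared each age with its own untreated arteries. Here the question was how the resting artery differs before and after postnatal maturation. RNA was labelled with the dye Cy3 and hybridized to Agilent sheep arrays, 1 array per sample.

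By the labels the newborn lambs were 12 hours old and the adult sheep 2 years. The design text of the series gives 5 days for the lambs and 18 to 24 months for non-pregnant adults, and the files do not settle which ages hold. It also states that 4 animals were used for each experiment. All segments were cleaned of adipose and connective tissue and kept for 30 minutes in an oxygenated Krebs bath. The untreated groups received no drug. The PHE-treated arrays of both ages, 4 each, had 10 µM PHE for 30 minutes and serve as a separate comparison. Untreated fetal arteries are given only as context. The labels put the premature fetus at 96 days of gestation and the near-term fetus at 146 days, where the design text has 140 for the latter.

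The wall of a cerebral artery is built mainly of smooth muscle, lined by endothelium and wrapped by an adventitia of fibroblasts and nerves. Around birth, vascular smooth muscle still divides and lays down elastin and collagen. In the mature vessel it is largely quiescent and expresses contractile proteins, while elastin is a long-lived protein that is hardly renewed.

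Signals are given as multiples of the 75th percentile of the array they were read on. That percentile was 864, 756, 760.4 and 645 intensity units on the newborn arrays and 1014, 1060.0, 1709.6 and 1085 on the adult arrays. Adult array 3 was thus brighter than the others, and its genes deviated most from the group mean, with an SD of 0.607 (log2) where the other adult arrays had 0.364 to 0.444 and the newborn arrays 0.270 to 0.367. Scanner background was 84 to 86 units on newborn arrays and 88 to 89 on adult arrays. Between 63.4% and 68.6% of the spots were well above background on a newborn array and between 64.6% and 74.1% on an adult array. All newborn arrays were on slide 1 and read on scan day 1, and the adult arrays were on slides 3 and 4, read on scan day 2. Age and scan day therefore cannot be told apart.

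The labelled tissue was checked against markers of contractile smooth muscle, of which 6 of 25 had a probe with a symbol. CNN1, a calponin that binds actin in smooth muscle, was at 111, 118, 104 and 172 in the newborn arrays and 518, 521, 216 and 436 in the adult arrays. MYL6, a myosin light chain, was at 215, 287, 259.6 and 289 in the newborn and 471, 459, 237 and 338 in the adult. Both were bright on all 8 arrays. Of the other 4, MYLK was higher in the adult, PDLIM3 was not called, and CALD1 and FLNA were lower. CALD1 was at 0.973 on average in the newborn and 0.0363 in the adult, and FLNA, which was not called under median scaling, at 1.19 and 0.545. ACTA2, MYH11, TAGLN and DES could not be examined because no probe carried those symbols.

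Compared with newborn arteries, adult arteries had far less RNA for elastin, for the enzyme that cross-links it, for several genes of cell division and for the imprinted transcript MEG3. They had more RNA for the cytoskeletal proteins PLEC and ACTN1, for cofilin and for PYGM and PDK4, enzymes of glycogen breakdown and of fuel choice. MEG3 was 74.1-fold lower in the adult, CKS2 58.3-fold, LOX 35.96-fold and ELN 32.7-fold. PRRC2A was 10.7-fold higher in the adult, PLEC 7.90-fold, ACTN1 7.598-fold and CFL1 6.22-fold. Markers of endothelium, blood cells and leukocytes were also lower in the adult, and in these bulk samples fewer cells of a type and less RNA per cell cannot be told apart.

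Of 9708 features tested, 5440 (56.0%) differed by at least 1.5-fold at an adjusted p under 0.05. In the adult, 2504 (25.8%) were higher and 2936 (30.2%) lower. A feature is a gene symbol, represented by its brightest probe, or a probe with no symbol. Symbols were available for 1927 features, of which 512 were higher and 538 lower, and features without a symbol gave 1992 higher and 2398 lower. The largest changes were mostly falls: 264 features were higher by at least 4-fold against 1088 lower, and 4 against 257 by at least 16-fold. Among the 8391 features well above background on all 8 arrays, the changes of at least 4-fold were 181 higher and 562 lower. The 4 adult and 4 newborn values did not overlap for 4899 of the called features, or 90.1%, and for 5545 of all features tested, or 57.1%.

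The split between higher and lower depended on how arrays were scaled. The median log2 difference of all features was -0.04. Scaling to each array's median in place of its 75th percentile moved that median by 0.59, quantile normalization by 0.14 and normexp background correction by -0.11. Of the called features, 46.0% were higher in the adult, and under median scaling 71.6% were. The 24 genes with the largest rises and falls kept their calls under all 3 settings and with any array left out. They were ranked among genes with a symbol and a signal well above background on all 8 arrays. Because they were chosen for large changes on these same arrays, that was likely from the start. Over all calls, 78.8% were kept under median scaling, 82.9% under quantile normalization and 85.6% with normexp.

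**Figure D1:**
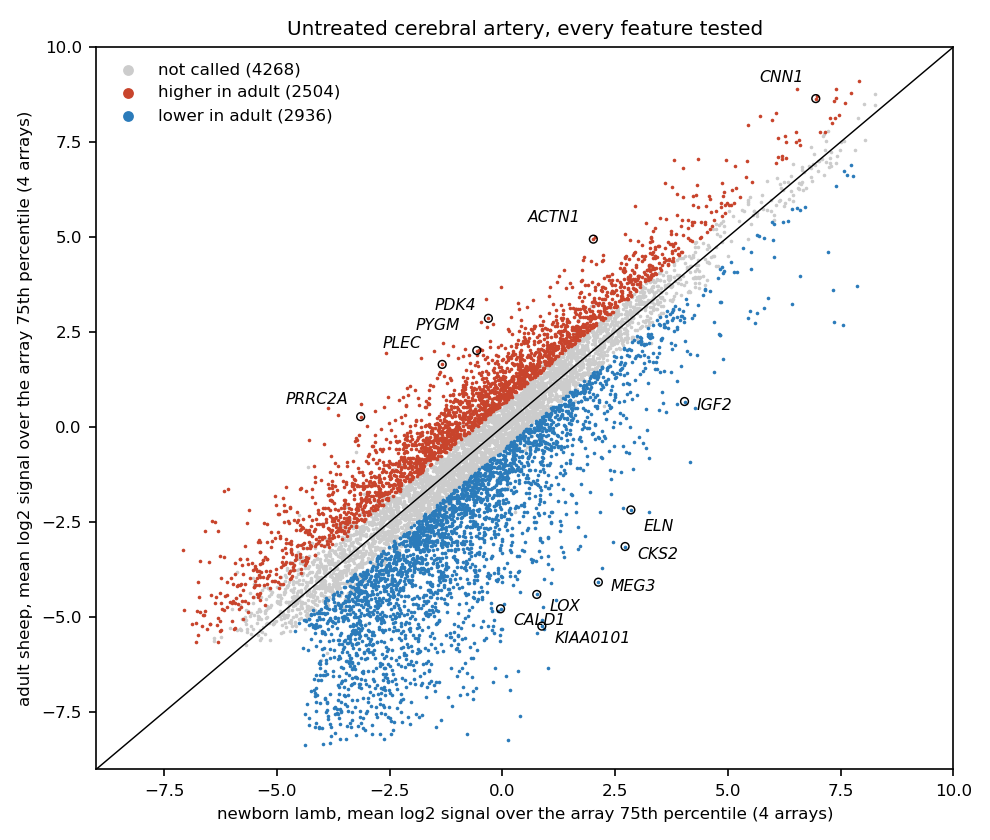
Mean log2 signal of every feature tested, newborn on the horizontal and adult on the vertical axis, each relative to the array's 75th percentile and averaged over 4 arrays; red marks the 2504 features higher and blue the 2936 lower in the adult, grey those not called. Falls reach further from the line of equality than rises, MEG3 and ELN among the circled genes, and under median scaling all points move up by about 0.59.

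**Figure D2:**
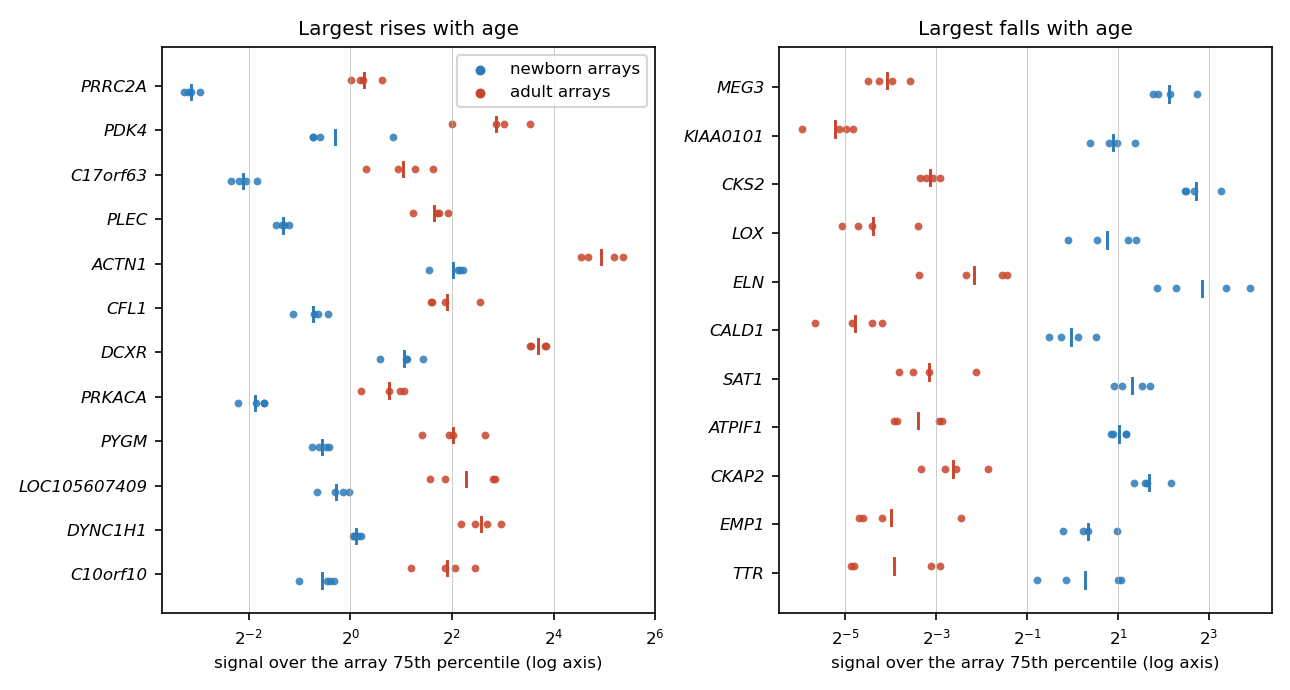
Signal of the 12 largest rises and 11 of the 12 largest falls on each of the 8 arrays, in multiples of the array's 75th percentile on a log axis, with a vertical bar at each group's mean of log2 values. In all genes shown the 4 adult arrays lie entirely on the side of the change.

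The extracellular matrix held some of the largest falls. ELN encodes elastin, the core of the elastic fibre. Its signal was 14.8, 4.86, 10.4 and 3.62 in the newborn arrays and 0.198, 0.0959, 0.369 and 0.338 in the adult arrays. Every newborn value was several times every adult value, although the newborn arrays spread widely, with replicates 1 and 3 highest. The log2 difference was -5.03 ± 0.54 (SE; adjusted p = 6.7e-05). LOX, the lysyl oxidase that cross-links elastin and collagen, was at 2.34, 1.45, 2.62 and 0.936 in the newborn and 0.0468, 0.0297, 0.0940 and 0.0380 in the adult. Its groups were far apart as well, at -5.17 ± 0.42 (adjusted p = 1.5e-05). COL3A1, a fibrillar collagen of vessel walls, was at 7.39, 5.02, 9.45 and 2.81 in the newborn and 0.640, 0.387, 2.08 and 0.492 in the adult. The brightest adult array, replicate 3, came close to newborn replicate 4 without reaching it, and the difference was -2.98 ± 0.55 (adjusted p = 0.0014). Its other 3 tested probes gave -4.17 to -3.35.

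Of 7 collagen and collagen-processing genes tested, 5 were lower in the adult and none higher, with a median log2 difference of -1.06 beside -0.04 over all features (71.4% called, beside 56.0% of all features). Under median scaling 3 were lower and 1 higher. Of 11 genes of elastic fibres and other matrix, 6 were lower and 2 higher, with a median of -1.54 (72.7% called). The falls there included FBLN1, a fibulin of elastic fibres, at -3.05, and THBS1, a thrombospondin, at -2.89. The rises were TNC, the matrix glycoprotein tenascin C, at 1.30, and BGN, the proteoglycan biglycan, at 0.93, the latter not called under quantile normalization.

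Matrix proteases and their inhibitors moved both ways, with 4 of 10 higher and 3 lower and a median of 0.28 (70% called, beside 56.0% of all features). With normexp 2 were higher and 3 lower and the median was -0.16, under quantile normalization 3 and 3, and without newborn array 4 the numbers were 2 and 4. The median was 0.08 without newborn array 3 or adult array 2, and 0.50 without adult array 4. PLAT, tissue plasminogen activator, was at 3.37, 4.01, 3.87 and 2.78 in the newborn and 0.431, 0.613, 0.383 and 0.438 in the adult. The groups were narrow and well apart (-2.92 ± 0.19, adjusted p = 5.4e-06). CTSD, the lysosomal protease cathepsin D, rose by 1.41 ± 0.16.

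MEG3 and IGF2, imprinted genes of fetal growth, were among the genes lower in the adult. MEG3, a maternally expressed long noncoding RNA, was at 3.68, 3.40, 4.42 and 6.61 in the newborn arrays and 0.0832, 0.0639, 0.0440 and 0.0519 in the adult arrays. Its adult values were all under 0.1, and no other named gene measured on all arrays changed as much (-6.21 ± 0.26, adjusted p = 1.0e-06; second probe -5.40). IGF2, the paternally expressed insulin-like growth factor, was at 18.8, 13.2, 19.4 and 15.2 in the newborn and 0.819, 1.31, 4.11 and 1.46 in the adult. Adult array 3 was the highest of its group but stayed under every newborn array. The difference was -3.37 ± 0.43 (adjusted p = 1.7e-04), while the dimmer tested probe of this symbol gave 0.42, so its probes disagree. IGF1 was called lower by the same test, at least 9.38-fold, with 3 adult arrays above background. IGF1R, the receptor for both growth factors, was the exception, at 0.540, 0.739, 0.466 and 0.489 in the newborn and 1.95, 2.64, 1.52 and 2.42 in the adult. All adult arrays exceeded all newborn arrays, by 1.93 ± 0.22 (adjusted p = 9.1e-05).

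IGFBP3, which binds insulin-like growth factors, shows how much adult array 3 can weigh: its newborn values were 2.61, 2.23, 1.74 and 0.707 and its adult values 0.0697, 0.106, 1.91 and 0.100. Adult array 3 lay among the newborn arrays and the other adult arrays far below them. The difference was -3.08 with all arrays (adjusted p = 0.021) and -4.18 without adult array 3 (adjusted p = 8.4e-05). It was not called without newborn array 1 (-2.85) or 2 (-2.93) or without adult array 1 (-2.59), 2 (-2.79) or 4 (-2.76). In all, 7 of 16 imprinted and fetal growth genes were lower and 1 higher (median -0.35; 50% called, beside 56.0% of all features), against 5 lower and 5 higher under median scaling. Without adult array 1 the counts were 5 lower and 3 higher, and 2 were higher without newborn array 2, 3 or 4 or adult array 3.

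Several cell division genes fell steeply. CKS2, a subunit of cyclin-dependent kinases, was at 5.64, 9.58, 6.38 and 5.51 in the newborn and 0.118, 0.107, 0.133 and 0.0974 in the adult. Adult values were tight and far below the newborn (-5.87 ± 0.21, adjusted p = 9.5e-07). KIAA0101, the PCNA-associated factor of DNA replication, was at 1.73, 2.57, 1.96 and 1.30 in the newborn and 0.0281, 0.0314, 0.0349 and 0.0160 in the adult. It too showed a wide gap between the groups (-6.11 ± 0.29, adjusted p = 1.3e-06). CKAP2, a protein of the mitotic spindle, was at 3.13, 4.51, 3.001 and 2.55 in the newborn and 0.168, 0.0995, 0.276 and 0.143 in the adult. The highest adult value, on array 3, stayed far below the lowest newborn value, for a difference of -4.33 ± 0.31 (adjusted p = 8.2e-06).

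Some dividing-cell genes were not well above background on any adult array, so only a lower bound can be given: the mean of the newborn arrays against, on each adult array, the higher of its own value and the lowest signal well above background there. CDCA7, a regulator of proliferating cells, was at 0.245, 0.207, 0.177 and 0.234 in the newborn arrays and at least 14.8-fold lower in the adult (adjusted p = 9.6e-07). NDC80, a kinetochore protein, was at 0.162, 0.280, 0.191 and 0.139 in the newborn and at least 12.9-fold lower (adjusted p = 9.2e-06). All newborn arrays measured both. Where only some arrays of a group measured a called gene, the same bound is given with their number. For such genes that were not called, differences rest partly on signal not above background. Of 13 cell cycle genes on the list, 8 were lower and 1 higher, with a median of -1.07 (69.2% called, beside 56.0% of all features), and under median scaling 6 were lower and 4 higher. CCNB2, a mitotic cyclin, was at least 19.7-fold lower with 2 adult arrays above background, and TYMS, which makes thymidylate for DNA, differed by -3.84. The single rise, MCM7 at 0.65, was not called with normexp or without adult array 4 (0.58).

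ACTN1, PLEC, CFL1 and DYNC1H1 act in the cytoskeleton and were among the 12 largest rises, CFL1 alone being on the list for it. ACTN1, an alpha-actinin that bundles actin, was at 4.50, 4.37, 4.66 and 2.94 in the newborn and 23.2, 36.3, 25.7 and 41.4 in the adult. Newborn array 4 was below the other newborn arrays, and all adult arrays were well above them (2.93 ± 0.24, adjusted p = 1.4e-05). PLEC, the linker protein plectin, was at 0.394, 0.404, 0.361 and 0.431 in the newborn and 2.35, 3.25, 3.78 and 3.34 in the adult. Its groups were compact and separate (2.98 ± 0.17, adjusted p = 3.0e-06). CFL1, cofilin, which severs actin filaments, was at 0.459, 0.733, 0.611 and 0.641 in the newborn and 3.64, 5.83, 3.03 and 3.06 in the adult. A second probe gave 2.69 beside 2.64 ± 0.24 (adjusted p = 2.8e-05), and adult array 2 was highest. The CFL1 mean was 2.57 in the near-term fetus, read on the adult arrays' scan day. It was 0.598 in the premature fetus, read on the newborn arrays' day. DYNC1H1, the heavy chain of cytoplasmic dynein, was at 1.04, 1.05, 1.15 and 1.11 in the newborn and 4.54, 6.46, 5.51 and 7.80 in the adult. The newborn arrays were nearly equal and all below the adult (2.45 ± 0.18, adjusted p = 9.1e-06). Of 5 genes listed for the immature or non-muscle cytoskeleton, 3 were higher and none lower (median 0.91; 60% called, beside 56.0% of all features), with 2 higher under quantile normalization. TUBB3, a beta-tubulin, rose by 1.63.

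Contractile smooth muscle genes did not move together. CNN1, given above, rose by 1.69 ± 0.30 (adjusted p = 0.0012), and its adult array 3, at 216, stood below the other adult arrays. MYLK, the kinase that starts contraction by phosphorylating myosin, was at 74.0, 89.3, 57.9 and 91.9 in the newborn and 206, 174, 143 and 315 in the adult. The groups did not overlap (1.38 ± 0.26, adjusted p = 0.0016). MYL6 overlapped between the groups and was not called (0.47, adjusted p = 0.11), although under median scaling it was, at 1.07. CALD1, caldesmon, which restrains the actin-myosin interaction, was at 0.698, 0.833, 1.09 and 1.42 in the newborn and 0.0347, 0.0471, 0.0544 and 0.0196 in the adult. Its only tested probe was lower on every adult array (-4.74 ± 0.34, adjusted p = 8.7e-06). FLNA, filamin A, was at 1.37, 1.22, 1.06 and 1.15 in the newborn and 0.834, 0.540, 0.329 and 0.595 in the adult. That fall (-1.13 ± 0.26, adjusted p = 0.0046) was not called under median scaling (-0.54). In all, 2 of 6 genes were higher and 2 lower (median -0.04; 66.7% called, beside 56.0% of all features), with 3 and 1 under median scaling and 2 and 3 with normexp. That median was 0.01 without newborn array 2, 0.18 without newborn array 4 and 0.08 without adult array 3, where 3 were higher.

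Regulators of myosin phosphorylation moved both ways. DAPK3, which phosphorylates myosin light chains and their phosphatase, was at 0.149, 0.138, 0.157 and 0.156 in the newborn and 0.389, 0.260, 0.596 and 0.338 in the adult. Adult arrays were all above newborn arrays (1.33 ± 0.24, adjusted p = 0.0011). PPP1R12A, the targeting subunit of myosin phosphatase, was lower (-0.77; not called under median scaling).

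Of 7 genes for calcium handling and ion channels, 3 were lower and 1 higher (median 0.42; 57.1% called, beside 56.0% of all features), but under median scaling 4 were higher and 3 lower, and without adult array 1 the counts were 2 and 3. ATP2A2, the calcium pump of the sarcoplasmic reticulum, rose by 1.10 ± 0.20, with 0.35 for its second probe. KCNK3, a background potassium channel, was at least 4.89-fold lower, with 2 adult arrays above background. ATP1B1, a subunit of the sodium pump, was lower at -2.71, and CALM2, a calmodulin gene, at -1.24.

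Among cyclic nucleotide and nitric oxide genes, PRKACA was higher and NOS3 lower in the adult. PRKACA, the catalytic subunit of the cAMP-dependent kinase that relaxes smooth muscle, was at 0.277, 0.307, 0.215 and 0.307 in the newborn and 1.98, 2.08, 1.16 and 1.70 in the adult. Every adult array was well above every newborn array (2.63 ± 0.22, adjusted p = 1.6e-05; second probe 2.51). NOS3, the endothelial nitric oxide synthase, was at 0.866, 0.655, 0.566 and 0.319 in the newborn and 0.00472, 0.00459, 0.134 and 0.0113 in the adult. Adult array 3 alone was well above background, so the fall was at least 19.9-fold (adjusted p = 0.0012). NOS1, the neuronal synthase, was at 0.291, 0.281, 0.335 and 0.530 in the newborn arrays and, on its brightest probe, at least 24.0-fold lower in the adult (adjusted p = 8.2e-06), while its other tested probe gave 1.23, the opposite direction. PRKG1, the cGMP-dependent kinase, was at least 6.71-fold lower, with 3 adult arrays above background. Of 10 such genes, 4 were lower and 1 higher (median -0.53; 50% called, beside 56.0% of all features), and under median scaling 3 were lower and 3 higher. Without adult array 4 the counts were 3 lower and 2 higher.

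Among other vasoactive receptors and ligands, 6 of 13 were lower and 1 higher (median -0.63; 53.8% called, beside 56.0% of all features), yet median scaling gave 2 lower and 5 higher and quantile normalization 3 and 3. EDN1, the constrictor peptide endothelin, was at 0.159, 0.194, 0.351 and 0.253 in the newborn and 0.0108, 0.00649, 0.0542 and 0.0115 in the adult. Only adult array 3 measured it above background, so the fall was at least 10.1-fold (adjusted p = 3.9e-04). PTGS1, a cyclooxygenase, was at 2.09, 1.71, 2.62 and 1.92 in the newborn and 0.122, 0.186, 0.487 and 0.140 in the adult. It was lower on every adult array, with array 3 the highest of them (-3.38 ± 0.40, adjusted p = 1.1e-04).

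Of the list on adrenergic receptors and sympathetic nerve, 3 genes could be tested, none of them an adrenergic receptor. NPY1R, a receptor for the sympathetic cotransmitter neuropeptide Y, was at 0.342, 0.314, 0.292 and 0.280 in the newborn and 0.150, 0.130, 0.158 and 0.0776 in the adult. The groups did not overlap (-1.30 ± 0.23, adjusted p = 0.0011). MAOA, which degrades noradrenaline, differed by 0.56 (adjusted p = 0.086) and was called under median scaling and with normexp. NPY itself differed by 0.17 (adjusted p = 0.53) with 2 newborn arrays above background, and was called higher under median scaling and quantile normalization, and turned to -0.38 with normexp. The list had 1 lower gene (33.3% called, beside 56.0% of all features) and a median of 0.17, with 2 higher and 1 lower under median scaling, 1 and 1 under quantile normalization, and 1 and 1 with normexp, where the median was -0.38. Without adult array 4, 1 was higher and 1 lower, and without newborn array 3 the median was near 0.

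PDK4, PYGM and DCXR, enzymes of carbohydrate use, were higher in the adult. PDK4, the kinase that shuts pyruvate dehydrogenase, was at 0.602, 0.600, 1.78 and 0.661 in the newborn and 8.17, 4.00, 11.7 and 7.30 in the adult. Newborn array 3 stood above its group and below every adult array (3.17 ± 0.42, adjusted p = 2.2e-04). PYGM, glycogen phosphorylase of muscle, was at 0.752, 0.718, 0.653 and 0.590 in the newborn and 3.87, 6.31, 2.67 and 4.08 in the adult. All adult arrays were higher (2.58 ± 0.25, adjusted p = 3.3e-05). DCXR, a reductase of xylulose and dicarbonyl compounds, was at 1.49, 2.69, 2.15 and 2.16 in the newborn and 14.4, 14.3, 11.7 and 11.6 in the adult. The adult arrays were close to each other and far above the newborn (2.63 ± 0.20, adjusted p = 9.9e-06). ALDOA, a glycolytic aldolase, rose by 2.05 ± 0.23, and SLC2A4, the insulin-sensitive glucose transporter, by 1.55 ± 0.27. HK2, an inducible hexokinase, was at least 3.57-fold lower in the adult (adjusted p = 1.5e-05). Of 20 genes of glycolysis and hypoxia, 6 were lower and 5 higher (median -0.32; 55.0% called, beside 56.0% of all features), against 4 lower and 6 higher under median scaling and 5 and 7 under quantile normalization.

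Of 17 genes of mitochondrial respiration and fat oxidation, 10 were higher and 2 lower, with a median of 0.64 (70.6% called, beside 56.0% of all features). Most of these rises were small, and without adult array 2 or adult array 4, 5 were higher; quantile normalization gave 4 higher and 3 lower. CPT1B, the muscle carnitine palmitoyltransferase that admits fatty acids to mitochondria, rose by 1.67 ± 0.21. CYCS, cytochrome c, was at least 10.9-fold lower, with 2 adult arrays above background. ATPIF1, the inhibitor protein of the ATP synthase, was not on that list and was among the largest falls, at 1.79, 2.24, 1.86 and 2.27 in the newborn and 0.0691, 0.0651, 0.130 and 0.136 in the adult. Both groups were compact (-4.43 ± 0.27, adjusted p = 3.7e-06). SAT1, which acetylates polyamines for export, was at 2.86, 2.11, 3.25 and 1.88 in the newborn and 0.0707, 0.0870, 0.230 and 0.111 in the adult. Adult array 3 was the highest of its group and still well below the newborn (-4.46 ± 0.36, adjusted p = 1.4e-05).

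Hormone and clock genes included several large falls. TTR, a carrier of thyroid hormone and retinol that brain choroid plexus makes in quantity, was at 0.902, 2.08, 2.01 and 0.579 in the newborn and 0.132, 0.0338, 0.0359 and 0.115 in the adult. The replicates scattered within both groups, but no adult array reached a newborn value (-4.21 ± 0.58, adjusted p = 2.6e-04). NFIL3, a repressor in the clock, was at 0.288, 0.493, 0.445 and 0.524 in the newborn and 0.0255, 0.0348, 0.0448 and 0.0357 in the adult. The gap was wide on all arrays (-3.63 ± 0.24, adjusted p = 5.5e-06). DBP, an activator that shares its binding sites, was at 1.97, 2.04, 1.10 and 1.33 in the newborn and 5.35, 6.94, 5.57 and 6.405 in the adult. It was higher on every adult array (1.95 ± 0.22, adjusted p = 8.8e-05). FKBP5, a glucocorticoid-induced cochaperone, rose by 1.08 ± 0.20. Of 12 glucocorticoid, thyroid and clock genes, 6 were lower and 2 higher (median -0.90; 66.7% called, beside 56.0% of all features), and 4 and 3 under median scaling. C10orf10, also known as DEPP1, was at 0.758, 0.493, 0.726 and 0.799 in the newborn and 4.15, 5.46, 2.30 and 3.66 in the adult. Its adult arrays were all higher (2.45 ± 0.27, adjusted p = 8.1e-05).

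Other large changes lay outside the lists. PRRC2A, a large RNA-binding protein, had the largest rise among genes with a symbol that were well above background on all 8 arrays, at 0.110, 0.128, 0.104 and 0.114 in the newborn and 1.14, 1.54, 1.01 and 1.20 in the adult. Its newborn arrays were close together and far below the adult (3.41 ± 0.16, adjusted p = 1.3e-06). C17orf63 was at 0.219, 0.240, 0.197 and 0.279 in the newborn and 1.92, 3.11, 1.23 and 2.41 in the adult. Adult array 3 was the lowest of its group and well above the newborn (3.15 ± 0.27, adjusted p = 2.1e-05). LOC105607409, an uncharacterised sheep gene, was at 0.634, 0.910, 0.806 and 0.982 in the newborn and 6.98, 3.63, 2.97 and 7.25 in the adult. Adult arrays 1 and 4 were the highest (2.56 ± 0.31, adjusted p = 1.3e-04). EMP1, an epithelial membrane protein, fell, from 1.25, 1.17, 1.96 and 0.858 in the newborn to 0.0406, 0.0544, 0.181 and 0.0384 in the adult. Adult array 3 was above the other adult arrays and below all newborn arrays (-4.32 ± 0.48, adjusted p = 8.2e-05).

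In 192 features no newborn array was well above background, and their rises are lower bounds built in the same way. The 4 named genes with the largest such bounds are given. EFHD2, a calcium-binding protein, was at 0.160, 0.177, 0.334 and 0.254 in the adult arrays and at least 6.07-fold higher than in the newborn (adjusted p = 2.1e-05). BCL6, a transcriptional repressor, was at 0.166, 0.124, 0.370 and 0.144 and at least 4.98-fold higher (adjusted p = 2.1e-05). ATXN2L, an RNA-binding protein of stress granules, was at 0.106, 0.118, 0.195 and 0.206 and at least 4.10-fold higher (adjusted p = 1.2e-05). All 4 adult arrays measured these genes. ITGA5, the alpha chain of the fibronectin receptor, was at 0.0889, 0.0279, 0.343 and 0.0753, with adult array 2 within the range of the newborn readings. Its bound was at least 2.45-fold (adjusted p = 0.015), and it was not called with normexp (0.43).

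FGFR1 was higher and NRP1 lower among receptors for growth factors. Of 16 angiogenesis genes tested, 6 were lower and 4 higher (median -0.08; 62.5% called, beside 56.0% of all features), but under median scaling 3 were lower and 8 higher and under quantile normalization 4 and 7. The median ran from -0.65 without newborn array 4 (8 lower) to 0.59 without adult array 2 (4 lower and 5 higher). It was also above 0 without newborn array 1, 2 or 3, with 4, 4 and 5 lower, and 4 were lower without adult array 1 or 4. FGFR1, a fibroblast growth factor receptor, was at 0.203, 0.204, 0.217 and 0.159 in the newborn and 0.625, 0.741, 1.02 and 0.783 in the adult. All adult arrays were higher (2.01 ± 0.19, adjusted p = 2.8e-05). NRP1, a coreceptor for vascular endothelial growth factor, was at 0.650, 0.601, 0.785 and 0.586 in the newborn and 0.0417, 0.0244, 0.123 and 0.0483 in the adult. It was lower on all adult arrays (-3.71 ± 0.42, adjusted p = 8.5e-05). VEGFA, that growth factor, was at least 3.86-fold lower, with 3 adult arrays above background.

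Of 18 genes of TGF-beta, BMP and Wnt signalling, 6 were higher and 5 lower (median -0.07), with 8 and 3 (median 0.53) under median scaling, 8 and 5 (0.05) under quantile normalization and 5 and 5 with normexp. They were called in 61.1%, beside 56.0% of all features. The median was 0.02 without newborn array 1, 0.03 without newborn array 4 and 0.08 without adult array 4. TGFB1, a transforming growth factor, was at 0.611, 0.550, 0.549 and 0.358 in the newborn and 1.05, 1.47, 1.55 and 1.599 in the adult. The groups did not overlap (1.46 ± 0.21, adjusted p = 3.8e-04). NOG, noggin, which blocks bone morphogenetic proteins, rose at least 5.15-fold, with 1 newborn array above background. FST, follistatin, which blocks activins, was at 1.04, 1.28, 1.20 and 1.123 in the newborn and 0.0696, 0.198, 0.213 and 0.0804 in the adult. Newborn values were alike and all higher (-3.22 ± 0.37, adjusted p = 8.9e-05).

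**Figure D3:**
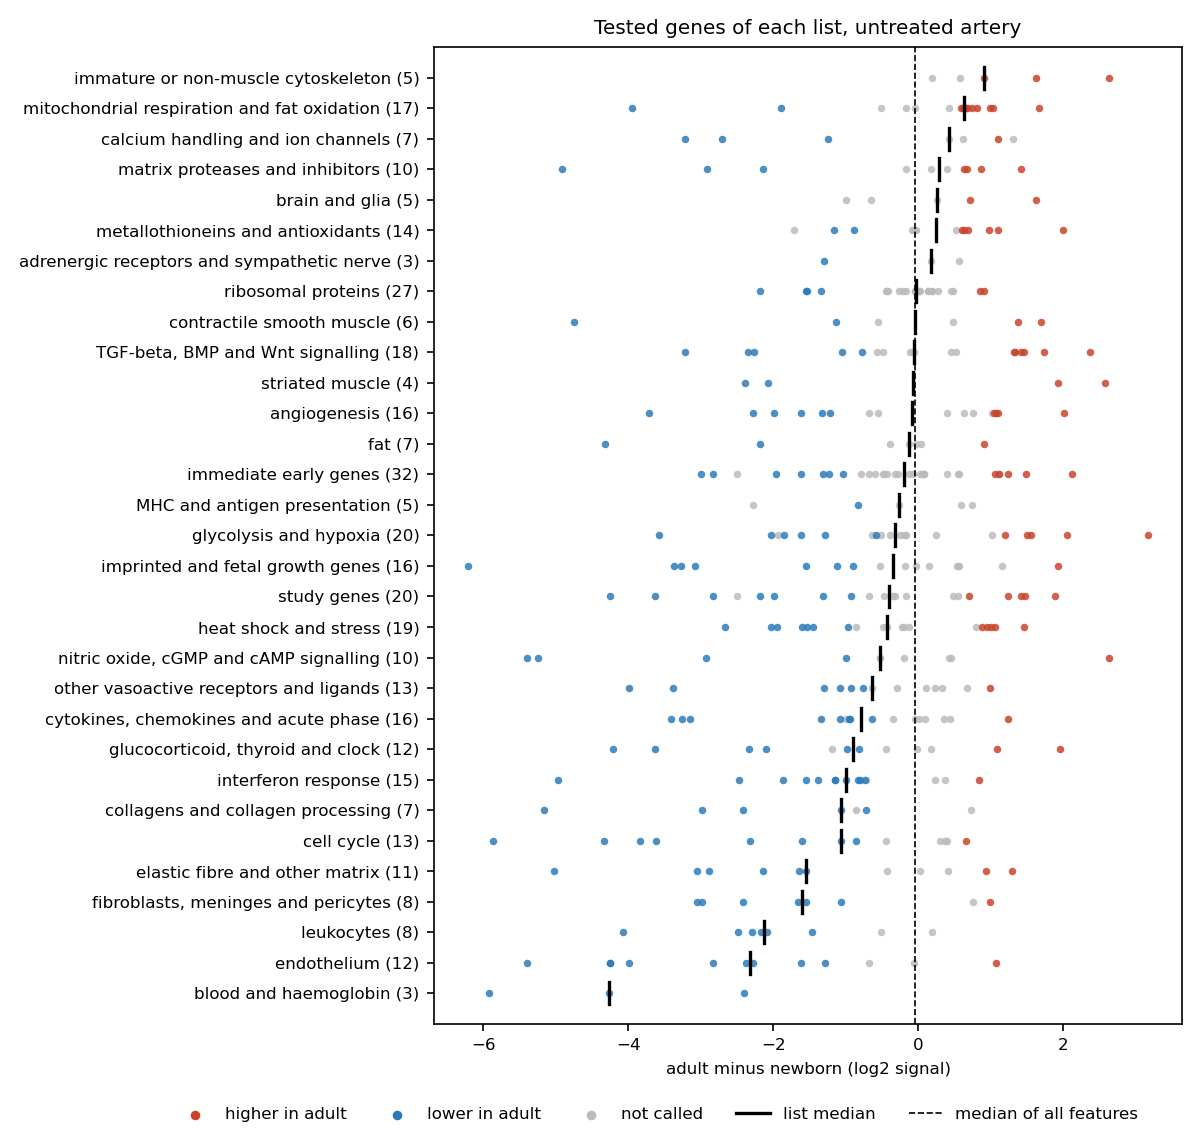
Adult minus newborn log2 difference of every tested gene in 31 lists, 1 dot per gene (red higher, blue lower, grey not called), with the number tested in brackets, the list's median as a bar and the median of all features (-0.04) as a dashed line. The medians of endothelium, leukocytes and blood lie furthest to the left, while under median scaling, which moves all dots right by about 0.59, the called genes of the lists on adrenergic and vasoactive receptors, antigen presentation, calcium handling, angiogenesis, cytokines, immediate early genes, glycolysis, ribosomal proteins and the study's own genes turn from mostly lower to mostly higher.

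Most endothelial markers tested were lower in the adult. Of 12 tested, 9 were lower and 1 higher, with a median of -2.33 (83.3% called, beside 56.0% of all features). Their summed signal was 10.2, 7.09, 10.8 and 10.1 on the newborn arrays and 2.17, 1.504, 3.79 and 2.06 on the adult arrays, which did not overlap. ABCG2, a drug transporter, was the brightest of them, and the rise was ENG, endoglin (1.07; not called with normexp). SELP, P-selectin, was at 2.01, 0.925, 1.57 and 2.67 in the newborn and 0.245, 0.0184, 0.200 and 0.0654 in the adult. It was lower on every adult array, 3 of which were above background, by at least 18.9-fold (adjusted p = 0.0012). ICAM1, an adhesion molecule for leukocytes, was at least 16.3-fold lower, with 2 adult arrays above background. FLT1, TEK, TIE1, SELE, ABCB1, MFSD2A, TJP1 and OCLN were not well above background on all arrays of either group, and PECAM1, CDH5 and VWF had no probe with a symbol. The genes of nitric oxide and of vasoactive ligands above include the endothelial NOS3 and EDN1, and the part of the endothelial markers in those results was not tested.

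Blood and leukocyte markers moved the same way. Of 3 blood genes, all were lower, beside 30.2% of all features. The median was -4.27, that of CA2, which 2 adult arrays measured. HBA1, alpha globin and the brightest of them, was at 31.98, 23.9, 37.8 and 23.0 in the newborn and 5.86, 2.64, 9.47 and 5.82 in the adult. No adult array reached the newborn range (-2.40 ± 0.36, adjusted p = 4.3e-04). HBB, a beta globin, was at 0.224, 1.64, 0.470 and 0.914 in the newborn and on no adult array above background, at least 39.3-fold lower (adjusted p = 5.7e-05; second probe -7.20). CA2, a carbonic anhydrase of red cells, was at least 14.2-fold lower, with 2 adult arrays above background. The summed blood signal was 32.7, 25.8, 38.4 and 24.2 in the newborn and 5.89, 2.65, 9.496 and 5.86 in the adult, and AHSP and CA1 were too dim to be tested.

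Of 8 leukocyte markers, 6 were lower and none higher (median -2.13; 75% called, beside 56.0% of all features), with 1 higher under median scaling. Their summed signal was 8.01, 5.596, 10.4 and 4.31 in the newborn and 2.11, 2.63, 4.42 and 2.62 in the adult, where adult array 3 slightly exceeded newborn array 4. CD3G was the brightest and was not called (0.19; called higher under median scaling). CTSS, a lysosomal protease of antigen-presenting cells, was at 1.54, 0.899, 1.44 and 0.875 in the newborn and 0.129, 0.218, 0.732 and 0.0877 in the adult. Its groups came close at adult array 3 but did not overlap (-2.48 ± 0.58, adjusted p = 0.0051). CD3D, CD3E, CD4, CD5, CD53, ITGAM, ITGAL, LYZ and S100A9 were not well above background on all arrays of either group. The part of leukocyte markers in the immune results that follow was not tested.

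CXCL10, MX1, IL18 and CCL2 were among the immune genes lower in the adult. Of 15 interferon-response genes, 11 were lower and 1 higher (median -1.002; 80% called, beside 56.0% of all features), and under median scaling 5 and 3. CXCL10, an interferon-induced chemokine, was at 0.139, 0.245, 0.557 and 0.384 in the newborn and 0.00593, 0.00620, 0.0324 and 0.00632 in the adult. Adult array 3 alone was above background, so the fall was at least 14.7-fold (adjusted p = 1.4e-04). MX1, an antiviral GTPase, differed by -1.86 ± 0.43. Of 16 cytokine, chemokine and acute-phase genes, 8 were lower and 1 higher (median -0.79; 56.2% called, beside 56.0% of all features). That count was 4 lower without newborn array 1 or adult array 4 and 5 without newborn array 3 or adult array 1, and median scaling gave 3 lower and 4 higher. IL18 was at least 9.85-fold lower and CCL2, a chemokine for monocytes, at least 9.61-fold, each with 3 adult arrays above background. NFKBIA, the inhibitor of NF-kappaB, was the rise, at 2.67, 2.37, 3.87 and 2.17 in the newborn and 6.51, 5.72, 5.95 and 7.36 in the adult. Its groups did not overlap (1.23 ± 0.20, adjusted p = 6.7e-04). Of 5 genes of antigen presentation, 1 was lower (20% called, beside 56.0% of all features), B2M (-0.83; not called under median scaling, where 1 other gene was higher, as also under quantile normalization), and the median was -0.27, or 0.23 without adult array 1 (1 higher and 1 lower), -0.81 without adult array 3 (2 lower) and 0.06 without adult array 4.

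Markers of other tissues were weak or mixed. Brain and glia markers gave 2 of 5 higher and none lower (median 0.27; 40% called, beside 56.0% of all features), with 1 and 1 with normexp. The second rise, STMN2, was called in the fits without newborn array 4 or adult array 3 and in no other fit that left out an array, and without adult array 2 the counts were 1 higher and 2 lower. Without newborn array 4 the median was -0.01. Their summed signal was 7.86, 10.6, 8.61 and 8.67 in the newborn and 25.2, 33.6, 19.1 and 22.7 in the adult, mostly from TUBB3, while MBP, AQP4, GRIA1, GRIA2, GRIN1, SLC1A2 and SLC1A3 were too dim to be tested. Striated muscle markers gave 2 of 4 higher and 2 lower, beside 25.8% and 30.2% of all features (median -0.07, or 0.07 without adult array 1, 0.52 under median scaling and 0.59 under quantile normalization), with sums of 1.91, 1.598, 1.56 and 1.29 against 4.27, 6.90, 3.18 and 4.62, brightest in PYGM, and MYH1, MYH2, MYH7, MB, MYOD1, MYOG and MSTN were too dim. The part of these markers in the rises of TUBB3 and PYGM was not tested. Fat markers gave 2 of 7 lower and 1 higher (median -0.12; 42.9% called), with 1 and 2 under quantile normalization, 2 and 2 under median scaling and 3 and 0 with normexp. Without newborn array 1, 2 or 3 or adult array 1 or 4, 1 was lower. Their sums, 0.967, 0.957, 0.938 and 1.14 in the newborn and 0.601, 0.767, 1.10 and 0.781 in the adult, overlapped, and FABP4, LEP, SCD and UCP1 were too dim. LPL, lipoprotein lipase, was at least 7.74-fold lower in the adult.

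Of 8 markers of fibroblasts, meninges and pericytes, 6 were lower and 1 higher (median -1.601; 87.5% called, beside 56.0% of all features). The rise was PTGDS, prostaglandin D synthase, at 0.99, which is also their brightest gene and supplied 63.8% of the summed signal in the newborn and 91.7% in the adult. The sums were 96.1, 101, 138 and 109.8 in the newborn and 126, 151, 160.4 and 169.6 in the adult, where adult array 1 lay below newborn array 3. These 8 markers include collagens and DCN, which also stand on the matrix lists, and their part in the matrix falls was not tested. The smooth muscle sums were 402, 496, 424 and 556 in the newborn and 1196, 1155, 596 and 1089.8 in the adult. On average MYL6 was the brightest gene in the newborn and CNN1 in the adult.

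**Figure D4:**
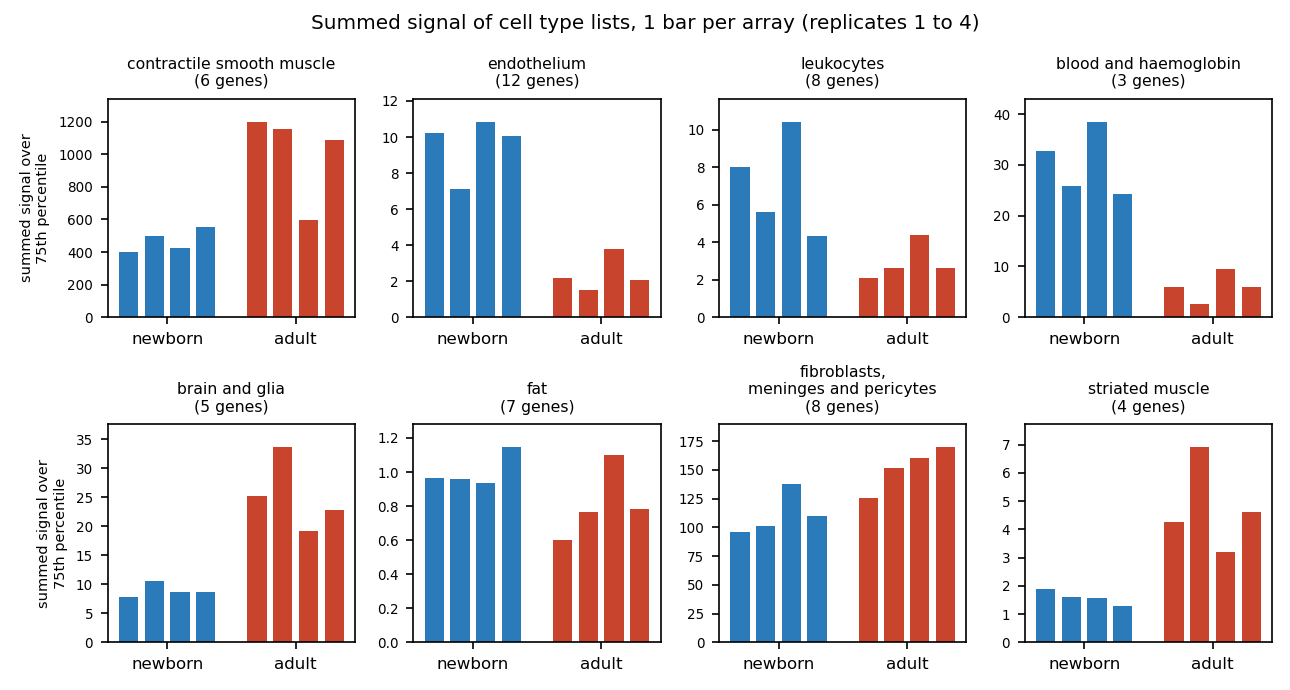
Summed signal of the tested genes of each cell type list on every array (multiples of the array's 75th percentile; newborn arrays blue, adult arrays red, replicates 1 to 4 from left to right in each group). Endothelial sums of 7.09 to 10.8 in the newborn stand above 1.504 to 3.79 in the adult and blood sums do likewise, while smooth muscle sums are higher in the adult, least so on array 3, although as many of its genes were lower as higher.

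PDIA3 was lower and DNAJB5 higher among stress genes. Of 19 heat shock and stress genes, 7 were lower and 5 higher (median -0.43; 63.2% called, beside 56.0% of all features), with 6 and 6 (median 0.17) under median scaling. PDIA3, a protein folding enzyme of the endoplasmic reticulum, was at 1.16, 0.982, 1.16 and 0.880 in the newborn and 0.0954, 0.0905, 0.368 and 0.229 in the adult. All adult arrays were lower (-2.66 ± 0.43, adjusted p = 6.5e-04). DNAJB5, a cochaperone, rose by 1.46 ± 0.20. Of 14 metallothionein and antioxidant genes, 6 were higher and 2 lower (median 0.24; 57.1% called, beside 56.0% of all features). Quantile normalization gave 3 and 2 and median scaling 7 and 0, and 3 were higher without adult array 1 and 2 without adult array 2. The number lower was 1 without newborn array 2 or 3 or adult array 1 or 4. MT2A, a metallothionein, had the largest rise (1.99), with overlapping groups, and was not called without newborn array 1 (1.46) or 2 (1.80) or adult array 1 (1.93) or 2 (1.69). TXNIP, which inhibits thioredoxin, was at 18.1, 18.7, 18.6 and 18.1 in the newborn and 40.4, 40.7, 49.9 and 29.9 in the adult. The newborn arrays were nearly equal and all below the adult (1.11 ± 0.17, adjusted p = 4.9e-04).

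Of 32 immediate early genes, 37.5% were called, beside 56.0% of all features, with 7 lower and 5 higher (median -0.20) and, under median scaling, 4 lower and 9 higher. Without adult array 2 the counts were 5 lower and 7 higher (median -0.02). More were higher than lower also without newborn array 3 (6 and 5) or 4 (7 and 6). Without newborn array 2 the median was -0.42. PPP1R15A, a stress-induced phosphatase subunit, was at 0.0712, 0.0784, 0.140 and 0.181 in the newborn and 0.479, 0.309, 0.626 and 0.554 in the adult. Its groups did not overlap (2.13 ± 0.34, adjusted p = 6.4e-04). TRIB1, a pseudokinase, was at 0.684, 0.574, 1.61 and 1.59 in the newborn and 0.126, 0.0884, 0.208 and 0.107 in the adult. Newborn arrays 3 and 4 were highest and every adult array was lower (-2.996 ± 0.40, adjusted p = 2.3e-04). FOS, a component of the AP-1 factor, was at 1.69, 0.164, 1.52 and 5.00 in the newborn and 0.847, 0.0706, 0.387 and 0.0889 in the adult. The groups overlapped and the difference was not called (adjusted p = 0.075; called lower with normexp).

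Of 27 ribosomal protein genes, 4 were lower and 2 higher, or 22.2% called, beside 56.0% of all features. The median was -0.03, and it was 0.01 without newborn array 1 (3 higher) and 0.03 without newborn array 4 or adult array 3. Median scaling gave 4 lower and 12 higher. RPS4X was the largest exception, at 1.39, 1.58, 1.84 and 1.79 in the newborn and 0.342, 0.508, 0.210 and 0.472 in the adult. All of its adult values were below the newborn (-2.18 ± 0.27, adjusted p = 1.5e-04). RPL15 rose by 0.90.

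From the study's text 24 genes were taken, PPARG standing for its PPAR pathway. The study reports many of them as upstream regulators inferred from the response of these samples to PHE. Their counts are therefore not independent evidence. Of 20 tested between the untreated ages, 7 were lower and 5 higher (median -0.41; 60% called, beside 56.0% of all features), against 5 and 7 under median scaling. IKBKB, a kinase that activates NF-kappaB, was at 0.512, 0.590, 0.594 and 0.544 in the newborn and 2.46, 2.13, 1.75 and 2.02 in the adult. All adult arrays were well above the newborn arrays (1.89 ± 0.15, adjusted p = 1.2e-05). STAT3, a transcription factor of cytokine signalling, rose by 1.47, TGFB3 by 1.41 and JAK1 by 0.70, the last not called under quantile normalization. The falls were SELP, NFIL3 and VEGFA, given above, KLF4 (-2.83) and 3 genes that depended on the settings. DUSP1 (-1.31) was not called under median scaling. PTGS2 (-0.93) was not called under median scaling or quantile normalization, nor without newborn array 3 (-0.76) or 4 (-0.71) or adult array 2 (-0.87). PPARG (at least 3.75-fold, 2 adult arrays above background) was not called under quantile normalization and, of the fits that left out an array, was called only without adult array 3. EGR1 (-0.48, adjusted p = 0.30), FOXO1 (-0.17), HMGB1 (-0.34), NCOR1 (0.48), ZFP36 (0.55) and FOS did not pass the test. Neither did KLF2, above background on 2 adult arrays, nor SOCS3, above background on 1 newborn array. No exact difference is given for KLF2 or SOCS3, because part of their signal was not above background. Quantile normalization called HMGB1 lower and NCOR1 higher, normexp called FOS and SOCS3 lower and NCOR1 and ZFP36 higher, and median scaling called NCOR1 and ZFP36 higher. CXCL8, IL1B, IL6 and TNF were too dim to be tested.

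In arteries exposed to PHE, adult sheep differed from newborn lambs in many of the same genes. These 8 arrays were not used above, but the newborn ones were again on slide 1 and scan day 1 and the adult ones on slide 3 and scan day 2, so any effect of slide or day would be shared with the untreated comparison. Also, whether they come from the same animals is not in the labels. ELN was lower in the adult by a log2 difference of -4.83, LOX by -4.01, EMP1 by -4.49 and CKAP2 by -3.03. PRRC2A was higher by 3.24, PLEC by 3.001, ACTN1 by 2.78 and CFL1 by 2.50. Of 9690 features tested on the PHE-treated arrays, 5840 (60.3%) were called, 2822 (29.1%) higher and 3018 (31.1%) lower in the adult. Called higher on both sets of arrays were 2159 features, 86.2% of the untreated list and 76.5% of the PHE list. Called lower on both were 2434, or 82.9% and 80.6%. Of the untreated rises 2 were lower and of the untreated falls 5 were higher on the PHE-treated arrays, FLNA among the latter (1.02).

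Whether the age difference itself depended on PHE was tested on the 16 arrays together, and 12 of 9707 features passed. CKS2 fell less with age under PHE (-2.36 against -5.87, adjusted p = 0.028 for the difference). C10orf10 rose more (5.33 against 2.45, adjusted p = 0.028). EGR1 was 3.31 under PHE against -0.48 untreated (adjusted p = 0.028), and ZFP36, which destabilises cytokine transcripts, 2.68 against 0.55 (adjusted p = 0.049). The difference did not pass for FLNA (adjusted p = 0.079) or MEG3 (adjusted p = 0.15), whose age differences were -3.11 under PHE and -6.21 untreated. On the PHE-treated arrays, 19 of 35 immediate early genes were higher and 2 lower in the adult, and none of 28 cytokine genes was higher and 22 were lower. Of all features on these arrays 60.3% were called, 29.1% higher and 31.1% lower. How these list counts differ from the untreated ones was not tested. The filter passed 28 cytokine genes here and 16 on the untreated arrays. A gene that passes it through the newborn arrays alone tends to be lower in the adult by that choice. How many of the 28 did so is not given here.

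The untreated fetal arteries offer context for genes that changed after birth. Near-term arrays were read on the adult arrays' scan day and premature arrays on the newborn arrays' day, and no test was made between these groups. Near-term array 4 was dim, with a 75th percentile of 124 intensity units beside 599, 1368 and 391 on the others. ELN averaged 4.90 in the premature fetus, 7.65 near term, 7.21 in the newborn and 0.221 in the adult, and MEG3 averaged 10.1, 10.9, 4.37 and 0.0590. For these genes the near-term level lay with the other young groups. IGF2 averaged 90.9, 39.7, 16.4 and 1.59, lower at each later age, and PLAT 4.40, 4.63, 3.47 and 0.459. CALD1 averaged 0.163 in the premature fetus, 0.973 in the newborn and 0.0363 in the adult, and no near-term array was above background. ATPIF1, with 3 near-term arrays above background, averaged 0.929, 0.0902, 2.03 and 0.0943, and PRKACA 0.248, 1.96, 0.274 and 1.69. CFL1 averaged 0.598, 2.57, 0.602 and 3.75. In ATPIF1, PRKACA and CFL1 the near-term mean lay by the adult mean, read on the same scan day, and the premature mean nearer the newborn. PDK4 averaged 0.0895, 0.311, 0.807 and 7.26, and PRRC2A 0.148, 0.489, 0.113 and 1.21, with the adult highest in both.

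**Figure D5:**
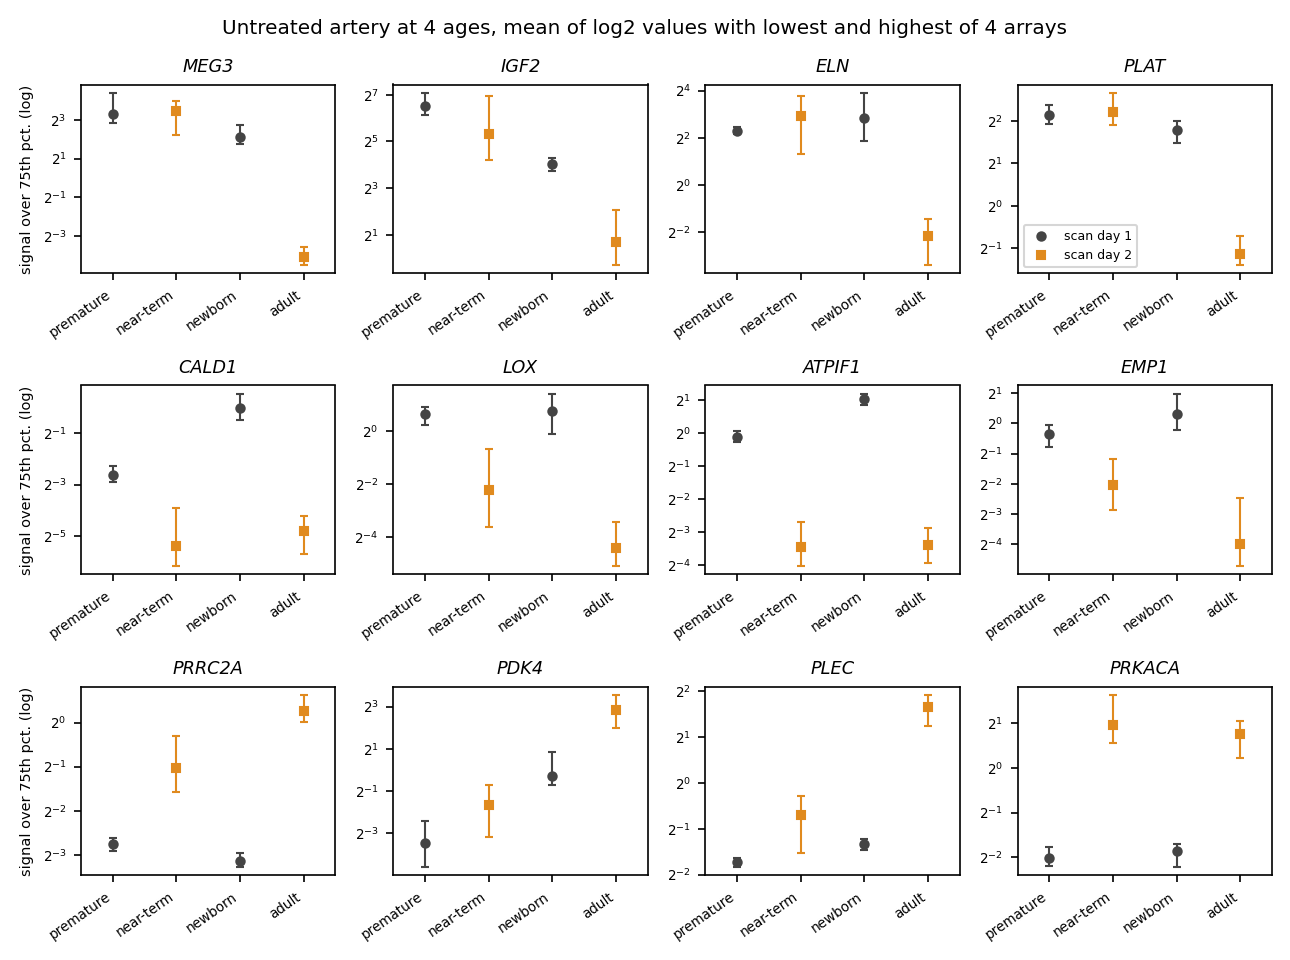
Signal of 12 genes in untreated arteries of 4 ages, as the mean of log2 values with the lowest and highest of 4 arrays, in multiples of the array's 75th percentile on log axes; grey circles were read on scan day 1 and orange squares on scan day 2. MEG3, ELN and PLAT are low only in the adult, and IGF2 is lower at each later age. ATPIF1 and PRKACA have near-term levels by the adult ones, and LOX and EMP1 lie between. CALD1 was above background on no near-term array and ATPIF1 and EMP1 on 3. PRRC2A, PDK4 and PLEC are highest in the adult.

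Limma was fitted across all features on the 4 adult and 4 newborn arrays, and p-values were adjusted over all 9708 features. The number of arrays limits precision, and age, slide and scan day change together in this comparison. Of the 1050 called features with a symbol, 818 owe it to the study's supplementary lists of genes altered by PHE, so named genes are not a random sample of the array.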

How the data were processed

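Per the file headers, the deposited intensity values were made with Agilent Feature Extraction 9.5.3.1, which subtracts background and writes a processed signal and a flag for spots well above background. Signals were taken as log2 after scaling every array to its 75th percentile. Of 15008 probes, 10089 were well above background on all 4 arrays of either group, and the brightest probe stood for each symbol. Adult and newborn arrays were compared with limma 3.58.1 in R 4.3.3 (lmFit, eBayes), with Benjamini-Hochberg adjustment, an adjusted p under 0.05 and at least 1.5-fold. The PHE-treated arrays were fitted apart, and the difference of both age effects was tested on all 16 arrays, a test added after the values of both fits were known. The calls were tested on simulated data.

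An annotation table for the array was not used here. Of 3183 probes with a symbol, 1769 took it from the study's supplementary lists, by matching group means within 0.02%. With the treated means shifted by 1 place, 73 of 1269 premature genes matched by chance against 1196 unshifted, and at most 2 genes at any other age. Of 183 probes named both ways, 165 had the same name after current symbols were used.

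The genes named were the 12 largest rises and 12 largest falls with a symbol and well above background on all 8 arrays, 4 bounds each way, and from each of 32 gene lists up to 4 called genes each way and the brightest. All tested genes of the adrenergic, blood and study lists were added. The members and lists were chosen with earlier results of these data known. The settings tried include other scalings, filters, tests and sets of arrays. Some genes and 1 list that the rule names are not reported here.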

Additional observations from a re-analysis of the deposited data

Results flagged for a closer look

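Among the 4 untreated adult arrays, array 3 lay far from the others in brightness: the gap to the nearest array took up 0.897 of the group's range for the 75th percentile and 0.903 for the median. The limit for 4 arrays is about 0.83, and chance passes it in about 1 in 20 groups. The adult array 3 also stood alone in CXCL10 (0.963 of the range), IGFBP3 (0.873) and the summed contractile smooth muscle signal (0.867).

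In the newborn, array 3 was high in PDK4 (0.911) and array 4 low in ACTN1 (0.86). The summed endothelial signal was low on newborn array 2 (0.832) and the summed fat signal high on newborn array 4 (0.846). In all, 128 groups of 4 gene values and 16 groups of sums were examined this way.

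The age difference depended on PHE in 4 of the 197 named genes, by a test of the difference itself. Untreated minus PHE-treated, it was -3.79 (log2) for EGR1, -3.51 for CKS2, -2.88 for C10orf10 and -2.13 for ZFP36.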

How the results depend on the processing

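The number of features called between untreated ages, 5440, ranged from 4668 (t-test with Benjamini-Hochberg adjustment) to 6275 (median scaling) in the settings that kept the filter on dim probes and the fold threshold for all arrays. With any array left out it was 5117 to 5679, and for the PHE-treated arrays 5597 to 5870. With no filter on dim probes, 14239 features were tested and 8462 called, 2536 higher and 5926 lower; more features are tested by construction. The deposited matrix gave 5445.

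Scaling changed the split between higher and lower calls more than their number. Median scaling gave 4491 higher and 1784 lower, quantile normalization 2967 and 2457, and normexp 2067 and 3009. Of the 5440 calls, 78.8%, 82.9% and 85.6% were kept in the same direction. The rest were no longer called, and none was called in the opposite direction. Of the 197 named genes, 161, 169 and 174 kept direction and call.

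The replicate block, which treats replicates of the same number as a pair, gave 5459 features. The pairing was not used, because the same number names different animals in the newborn and adult groups. Correlations between arrays of the same number ranged from 0.00 to 0.19, and between arrays of different numbers from -0.21 to 0.11. Slide as a random block gave 5273. For the PHE-treated arrays a slide block was not possible.

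ACACA was on no newborn array above background and at least 1.25-fold higher in the adult; its fitted difference turned to -0.26 with normexp, which rests on the same unmeasured newborn signal. CAV1, not called at 0.42, was lower at -1.603 with the mean of its probes and called higher under median scaling (1.01) and normexp (0.70). The cause was not tested for either. Of 326 symbols with several tested probes, 10 had probes called in opposite directions.

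Depth was lower in the newborn, where the 75th percentile was 7.55 to 10.2 times the background against 11.4 to 19.4 in the adult. Dim genes are therefore bounded less closely in the newborn.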
